A study of Drosophila melanogaster with 6 samples.

Results

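The genes described here are 10 autosomal genes that pattern the neuroectoderm of the fly embryo, specify its midline or act in its neural stem cells, the neuroblasts: *ind*, *sim*, *SoxN*, *D*, *wor*, *esg*, *nerfin-1*, *pros*, *sca* and *mira*. They were chosen by symbol, with earlier results of these data known. Each was listed under its own symbol alone among the 16596 loci of the authors' deposited table. The intervals given there for *ind*, *mira*, *pros* and *sca* are also given for other loci. mRNA was sequenced from 6 samples of whole, hand-sorted stage 5 embryos, the cellularizing blastoderm. 3 samples were of the wild-type control *w1118*. The other 3 held the offspring of mothers homozygous for *zldZnF2*, a Cas9-made allele of the pioneer factor gene *zelda* with a serine in place of a zinc-chelating cysteine of the second zinc finger. These embryos therefore received mutant maternal *zld* mRNA, and the genotype of their fathers and the number of embryos per sample are not given in the sources used here. The file gives 1 FPKM (fragments scaled for transcript length and sequencing depth) per genotype, computed by the authors over the 3 samples together. Without values per sample, no spread between replicates, no depth and no test could be given, and every difference below is a description of those pooled values.

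In the blastoderm the neuroectoderm lies on either side of the embryo, between the mesoderm and the dorsal ectoderm, and is divided into columns by homeodomain factors. Within it, SoxB factors, proneural factors and lateral inhibition single out neuroblasts, which then delaminate and divide asymmetrically, passing fate determinants such as Prospero to the smaller daughter cell through the adaptor Miranda. A row of mesectoderm cells at the border with the mesoderm becomes the midline of the nerve cord. Neuroblasts are not yet formed at stage 5, so genes known from neuroblasts are read here at the stage before those cells exist.

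Among the 10 genes, the neuroectoderm genes *ind*, *SoxN* and *sca* were listed at higher levels in *zldZnF2* than in *w1118*, and *D* was not. *mira*, *esg*, *pros*, *wor* and *nerfin-1*, known from neuroblasts, were all listed at lower levels. *SoxN*, which was higher, is also counted among the genes of neuroblast selection below, as is *D*. Of *mira*, *esg* and *pros*, which reached 1 FPKM, only *mira* was lower past 2-fold. Among all 6265 loci reaching 1 FPKM in either genotype on the 4 arms used, 3109 were listed at higher levels in *zldZnF2*. *ind* was 4.30-fold, *SoxN* 2.49-fold and *sca* 2.15-fold higher, while *mira* was 2.51-fold lower. *D*, *pros* and *esg* were within 2-fold of *w1118*. *sim*, *wor* and *nerfin-1* were under 1 FPKM in both genotypes. Differences are given below as log2((*zldZnF2* FPKM + 1)/(*w1118* FPKM + 1)), which understates the ratio of low values, and higher or lower past 2-fold refers to that scale. By this rule 3 of the 7 genes reaching 1 FPKM in either genotype were higher and 1 was lower. Of all 6265 such loci on chromosome arms 2L, 2R, 3L and 3R, 9.82% were higher and 8.16% lower, or 18% in either direction. The median log2 difference was -0.09 over the 7 genes and -0.00 over all such loci. Their median absolute log2 difference was 1.09, against 0.43 over all such loci. Since the 10 genes were chosen with earlier results of these data known, these values are a description only. As these are whole embryos, a change in the number of cells that express a gene and in mRNA per cell cannot be told apart. Embryos of this stage hold maternal as well as zygotic mRNA, and these cannot be told apart here either.

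**Figure D1:**
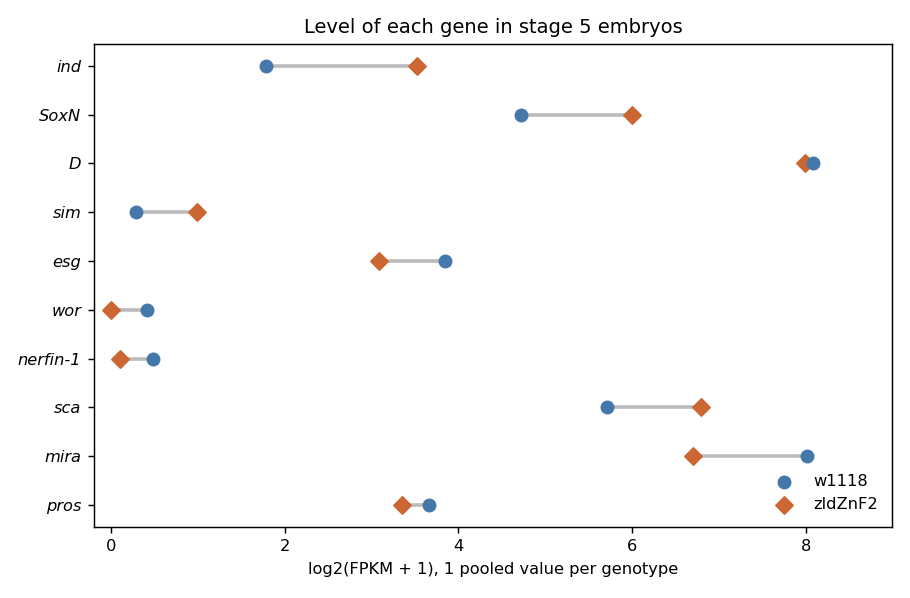
Level of each of the 10 genes as log2(FPKM + 1) in *w1118* (circles) and *zldZnF2* (diamonds), 1 pooled value per genotype. *ind*, *SoxN*, *sca* and *sim* lie further right in *zldZnF2* and the other 6 further left, with *D* almost in place.

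*ind* (FBgn0025776) encodes the homeodomain factor of the intermediate neural column. It lies on the minus strand of 3L from 15042799 to 15043924 (dm6, Ensembl release 115), a gene of 1 exon and 1126 bases. It stood at 2.43 FPKM in *w1118* and 10.5 FPKM in *zldZnF2*, a log2 difference of 1.74, the largest among the 10 genes. 99.0% of the loci reaching 1 FPKM in either genotype had a smaller value. Of the 4468 other loci whose mean FPKM was at least that of *ind*, 22 had a larger log2 difference. The spread of differences narrows as the level rises, so these more abundant loci are not loci of like level. The same holds for the counts given below for *SoxN*, *sca* and *mira*. The neighbouring lateral column is marked by *Dr*, a homeobox gene also called *msh*, which was listed at 0.359 and 1.97 FPKM, a log2 difference of 1.13. *ind* thus stood 6.77-fold above *Dr* in *w1118* and 5.32-fold above it in *zldZnF2*, on the FPKM scale. *vnd*, the homeobox gene of the ventral column, lies on the X chromosome, where all loci are listed at 0, so the third column was not compared.

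*SoxN* (FBgn0029123; 2L, 8825645 to 8829670, plus strand, 1 exon per transcript) and *D* (FBgn0000411, *Dichaete*; 3L, 14175610 to 14178620, minus strand) encode HMG-box transcription factors of the SoxB group with partly overlapping roles in the early nervous system. *SoxN* stood at 25.3 FPKM in *w1118* and 62.8 FPKM in *zldZnF2*, a log2 difference of 1.28. Only 11 of the 2180 other loci with at least its mean level had a larger log2 difference. *D* was listed at 269.9 and 253.1 FPKM, a log2 difference of -0.09, and was the most abundant of the 10 genes in both genotypes. The level of *D* was 10.7 times that of *SoxN* in *w1118* and 4.03 times in *zldZnF2*. The related genes *Sox21a* and *Sox21b*, which lie near *D* on 3L, did not exceed 0.124 FPKM in either genotype. *Sox14*, a family member known for its response to ecdysone in later development, was listed at 3.01 and 11.3 FPKM (log2 difference 1.61).

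*sca* (FBgn0003326, *scabrous*; 2R, 12780541 to 12802010, plus strand, 4 exons) encodes a secreted fibrinogen-related protein that acts with Notch in spacing neural precursors. It stood at 51.3 FPKM in *w1118* and 110.1 FPKM in *zldZnF2*, a log2 difference of 1.09. It was the third most abundant of the 10 genes in *w1118* and, ahead of *mira*, ranked 2 in *zldZnF2*. Of the 1434 other loci with at least its mean level, 9 were higher past 2-fold and 7 had a larger log2 difference. The antisense RNA *CR45137* shares 394 exonic bases with *sca*, or 10.4% of the exonic bases of *sca*, and was listed at 0.772 and 0.757 FPKM. The library kit does not mark strand, so reads in the shared bases cannot be assigned to either gene.

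**Figure D2:**
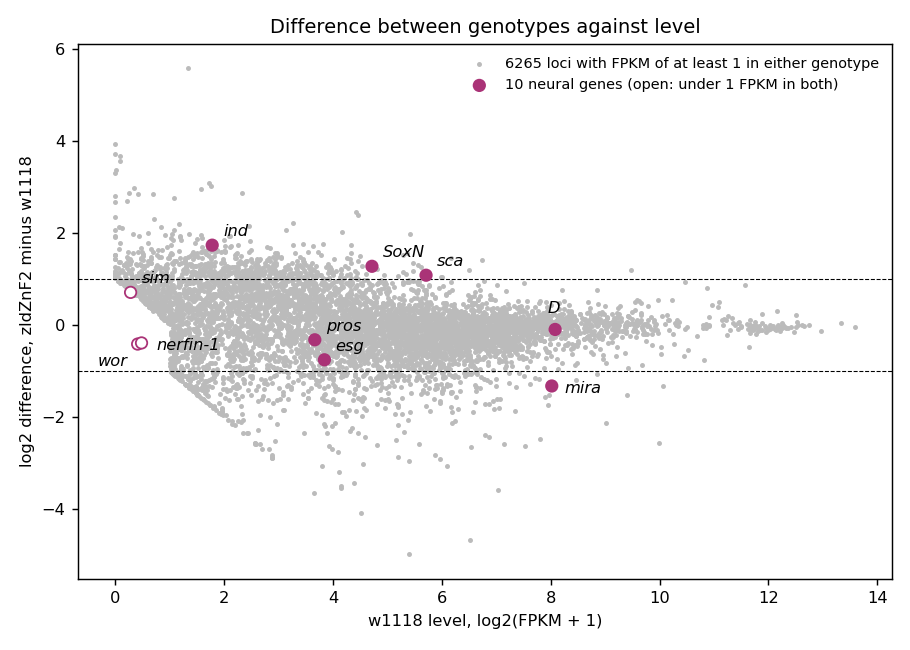
Log2 difference between genotypes (*zldZnF2* minus *w1118*, y axis) against the *w1118* level (x axis, log2(FPKM + 1)) for 6265 loci (grey) and the 10 genes (purple, open where under 1 FPKM in both genotypes). Dashed lines mark 2-fold; the spread of the grey points narrows as the level rises, and *mira*, *SoxN* and *sca* lie at its edges while *D* lies in its centre.

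*mira* (FBgn0021776, *miranda*; 3R, 19931799 to 19935120, minus strand) encodes the adaptor that carries Prospero, Brat and Staufen to the basal side of a dividing neuroblast. It stood at 258.5 FPKM in *w1118* and 102.8 FPKM in *zldZnF2*, a log2 difference of -1.32. Few mRNAs at or above its mean level differed as much, and these are not loci of like level. Among the 637 other loci whose mean level was at least that of *mira*, 2 were higher and 7 lower past 2-fold, and 3 had a lower log2 difference. *mira* lies within *Hs6st*, a heparan sulfate sulfotransferase gene on the same strand, without sharing an exonic base with it. *Hs6st* was listed at 47.8 and 28.2 FPKM, a log2 difference of -0.74.

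*pros* (FBgn0004595, *prospero*; 3R, 11328480 to 11407627, plus strand, 6 transcripts) encodes the homeodomain factor that Miranda carries. It stood at 11.7 FPKM in *w1118* and 9.18 FPKM in *zldZnF2*, a log2 difference of -0.32. The level of *mira* was 22.1 times that of *pros* in *w1118* and 11.2 times in *zldZnF2*. *KP78b*, a kinase gene on the other strand within *pros*, shares no exonic base with it and was listed at 170.5 and 208.4 FPKM.

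*esg* (FBgn0287768, *escargot*; 2L, 15333866 to 15336138, plus strand, 1 exon) and *wor* (FBgn0001983, *worniu*; 2L, 15423297 to 15425580, minus strand, 2 exons) encode zinc finger repressors of the Snail family, which act redundantly with *sna* in neuroblasts. The 3 genes follow each other along 2L, with 87.2 kb between *esg* and *wor* and 51.0 kb between *wor* and *sna*. *esg* stood at 13.3 FPKM in *w1118* and 7.52 FPKM in *zldZnF2*, a log2 difference of -0.75, short of 2-fold. *wor* was listed at 0.328 FPKM in *w1118* and at 0 in *zldZnF2*. *sna*, which at this stage is known from the mesoderm, was listed at 123.3 and 149.4 FPKM, a log2 difference of 0.27. *sna* was thus 9.25 times as abundant as *esg* in *w1118* and 19.9 times in *zldZnF2*. The family members *scrt* and *CG12605* were under 1 FPKM in both genotypes.

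*nerfin-1* (FBgn0028999; 3L, 909112 to 912319, plus strand, 1 exon) encodes a zinc finger factor of nascent neurons and their precursors. It was listed at 0.395 FPKM in *w1118* and 0.0684 in *zldZnF2*. *sim* (FBgn0004666, *single-minded*; 3R, 13057755 to 13078124, plus strand, 8 exons) encodes the bHLH-PAS master regulator of the midline. It was listed at 0.214 FPKM in *w1118* and 0.991 in *zldZnF2*, just under the minimum of 1 FPKM used for the counts. *tgo*, which encodes the broadly expressed partner of Sim, was listed at 158.8 and 167.3 FPKM. For these genes and for *wor* the size of the log2 difference depended on the pseudocount. With 1 FPKM added it was 0.71 for *sim*, -0.39 for *nerfin-1* and -0.41 for *wor*, and with 0.1 FPKM added it was 1.80, -1.56 and -2.10.

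In *w1118* the order of the 10 levels from the highest was *D*, *mira*, *sca*, *SoxN*, *esg*, *pros*, *ind*, *nerfin-1*, *wor* and *sim*. In *zldZnF2* it was *D*, *sca*, *mira*, *SoxN*, *ind*, *pros*, *esg*, *sim*, *nerfin-1* and *wor*. *ind* moved ahead of *pros* and *esg*, and *sim* ahead of *nerfin-1* and *wor*. Whether neighbours in either order differ beyond the spread between samples could not be determined.

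The wider pathways were read from lists of related genes, counting only genes on the 4 arms reaching 1 FPKM in either genotype. Beside the 10 genes, 42 of 60 such related genes passed this minimum, of which 9 (21.4%) were higher and 2 (4.76%) lower past 2-fold, beside 9.82% and 8.16% of all loci. Since the lists were drawn up with earlier results of these data known, these shares are a description only. Without *mfas*, whose value was known when it was listed, 8 of 41 (19.5%) were higher. Among neuroectoderm genes, 3 of the 5 others were higher and none lower past 2-fold. Besides *Dr* these were *ths* and *pyr*, which encode FGF ligands for the underlying mesoderm. *ths* was listed at 2.45 and 10.5 FPKM (log2 difference 1.74) and *pyr* at 3.57 and 11.6 FPKM (1.46). *rho*, a protease of the EGF receptor pathway, was listed at 23.2 and 25.9 FPKM, and *vn*, a ligand of that receptor, at 1.43 and 2.90 FPKM, both within 2-fold. With *ind*, *SoxN*, *sca* and *D*, 6 of the 9 neuroectoderm genes were higher, and their median log2 difference was 1.13.

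Of 6 midline genes other than *sim*, 2 were higher and none lower past 2-fold, beside 9.82% and 8.16% of all loci. *mfas*, which encodes a midline fasciclin, stood at 2.37 and 26.5 FPKM (log2 difference 3.03). *comm*, whose product clears Robo receptors from axons that cross the midline, stood at 12.7 and 38.3 FPKM (1.52). *sli*, which encodes the midline repellent Slit, stood at 45.6 and 75.2 FPKM (0.71), within 2-fold.

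Genes of neuroblast selection and of the proneural group gave no higher gene besides *SoxN* with 1 FPKM added. Over all loci, 9.82% were higher and 8.16% lower past 2-fold, and these short lists were not tested against those shares. Of the 4 measured neuroblast genes outside the 10, *phyl*, which encodes an adaptor of the ubiquitin ligase Sina, was lower, at 57.3 and 21.4 FPKM (log2 difference -1.38). *dpn*, a bHLH-O repressor used as a neuroblast marker, was listed at 61.2 and 38.3 FPKM (-0.66), and *klu*, a zinc finger gene, at 0.289 and 1.56 FPKM (0.99). The FPKM ratio of *klu* was 5.38, and with 0.1 FPKM added this list held 2 higher genes in place of 1. Of 4 measured proneural genes and partners, *amos* was lower, at 109.5 and 20.1 FPKM (-2.39). *da*, which encodes the common partner of proneural bHLH proteins, was listed at 29.8 and 56.3 FPKM (0.90). *ac*, *sc*, *l(1)sc* and *ase* lie on the X chromosome and were not compared.

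Of 6 measured genes later serving as temporal identity factors of neuroblasts, 2 were higher and none lower, beside 9.82% and 8.16% of all loci. The higher genes were *pdm2*, a POU homeobox gene, at 8.45 and 23.0 FPKM (log2 difference 1.34), and *grh*, at 19.2 and 40.2 FPKM (1.03). *hb*, *Kr* and *cas* were within 2-fold. In the asymmetric division machinery *mira* was the 1 gene of 16 measured that was lower past 2-fold, beside 8.16% of all loci. Of the 14 genes other than *mira* and *pros*, 13 were within 2-fold and 1 was higher. The higher gene was *jar*, which encodes myosin VI, at 10.3 and 24.2 FPKM (1.16). *brat* stood at 31.2 and 33.4 FPKM and *stau* at 88.6 and 58.2 FPKM (-0.60), both known to be carried by Miranda. *insc*, in a locus shared with *sktl*, stood at 22.2 and 41.3 FPKM (0.87), and *aurA* at 40.7 and 20.7 FPKM (-0.94). *cno* (-0.70) and *aPKC* (-0.57) were also below *w1118* and within 2-fold. Whether *mira* differed from these genes was not tested.

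**Figure D3:**
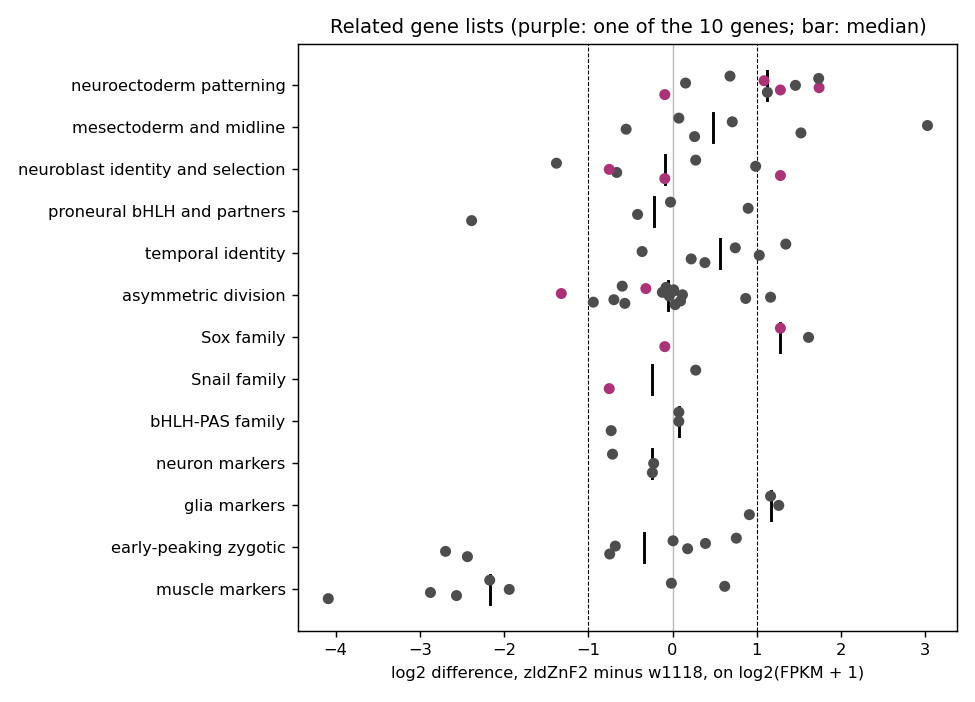
Log2 difference (x axis, *zldZnF2* minus *w1118*, on log2(FPKM + 1)) of each gene reaching 1 FPKM in either genotype, by list (y axis). Purple points are among the 10 genes, black bars are medians and dashed lines mark 2-fold; 6 of 9 neuroectoderm genes lie right of it, while the 16 asymmetric division genes centre near 0 with *mira* furthest left.

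Markers of differentiated neurons, glia and muscle, and of the blastoderm itself, were read beside these values. Of all loci reaching 1 FPKM in either genotype, 9.82% were higher and 8.16% lower past 2-fold. The 8 early-peaking zygotic genes on the 4 arms were all present, from 14.8 to 2144 FPKM in *w1118* and from 1.44 to 2812 FPKM in *zldZnF2*. 4 of them were above and 4 below in *zldZnF2*, and of these *CG16813* and *CG13711* were lower past 2-fold. Of 10 neuron markers on the arms, *Syx1A* (in a locus shared with *4EHP*) and *Csp* were abundant in both genotypes, and the other 8 summed to 1.96 FPKM in *w1118* and 0.586 FPKM in *zldZnF2*. 7 of those 8 were above in *w1118*, as were *wor* and *nerfin-1*. 6 glia markers summed to 4.50 and 12.6 FPKM, with *pnt* (in a locus shared with *CG4434*) at 1.70 and 5.05 FPKM and *nrv2* at 0.767 and 3.24 FPKM higher past 2-fold. Neither was past 2-fold with 5 FPKM added. *gcm*, in a locus shared with *CG31709*, was at 1.70 and 4.08 FPKM, within 2-fold. *repo*, which defines glia, was at 0.0666 and 0.0522 FPKM. Whether the summed values reflect glia was not tested. 5 of the 7 measured muscle markers, *Act57B*, *Mlc1*, *Mf*, *Tm2* and *Mlc2*, were lower, with log2 differences from -4.09 to -1.94. With 5 FPKM added, or a minimum of 5 FPKM, 2 were. Without *Tm1*, which was abundant in both, the 7 other muscle genes on the arms summed to 41.6 FPKM in *w1118* and 2.60 FPKM in *zldZnF2*, where *Mf* and *Mlc1* were listed at 0. Whether such RNA in *w1118* had a part in the lower values of *wor* and *nerfin-1* was not tested.

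The surroundings of the 10 genes were examined through all loci reaching 1 FPKM in either genotype near them. The interval of such a locus in the table had to lie within 50 kb of the gene's own interval there. That interval spans 50283 bases for *ind* and 79236 bases for *mira*, more than the gene itself. A locus counted here can therefore start further than 50 kb from the gene. No such locus was found around *SoxN*, *esg* or *wor*, although the table lists 8, 7 and 10 loci there. Around the other 7 genes there were 73 such loci, of which 6 (8.22%) were higher and 8 (11.0%) lower past 2-fold. Their median log2 difference was -0.01. These shares were near the 9.82% and 8.16% of all loci. The 3 loci around *D* were within 2-fold, as *D* was.

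*ind* lies in the gene *Sytbeta* on the same strand without sharing exonic bases, and *Sytbeta* did not exceed 0.0454 FPKM. Unlike *ind*, none of the 17 loci around it was higher past 2-fold, and 3 were lower, beside 9.82% and 8.16% of all loci. All 3 lie within the span of *Sytbeta*. These were *CG18649* (11.6 FPKM in *w1118*), the locus of *CG12310*, *CG18581* and *CG43679* (4.06 FPKM) and *CG13461* (1.07 FPKM), each listed at 0 in *zldZnF2*. Their starts lie 10.2, 6.88 and 8.57 kb upstream of that of *ind*. These 3 loci are listed with the same interval as *ind*, and an FPKM of 0 may be a failed estimate. Whether the values of *ind*, from that same interval, were affected was not tested.

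Around *sca*, *Dgkepsilon*, a diacylglycerol kinase gene 23.0 kb upstream, was higher (9.92 and 21.6 FPKM, log2 difference 1.05), as was the low locus of *antr* and *CG30486*, and *CG17574* was lower (-1.48). Around *mira*, *MED25* (1.14) and *Pk92B* (1.10) were higher and *mdlc* (-1.03) and *CG4433* (-1.49) lower. Their starts lie 73.8, 55.4, 122.6 and 86.2 kb from that of *mira*, in that order. Around *pros*, *CG5281* (1.45) and *CG17230* (1.42) were higher, with starts 107.4 and 109.3 kb from that of *pros*. 1 locus was lower near *sim*, *CG11670* (-1.17), and 1 near *nerfin-1*, *CG13907* (-1.10).

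**Figure D4:**
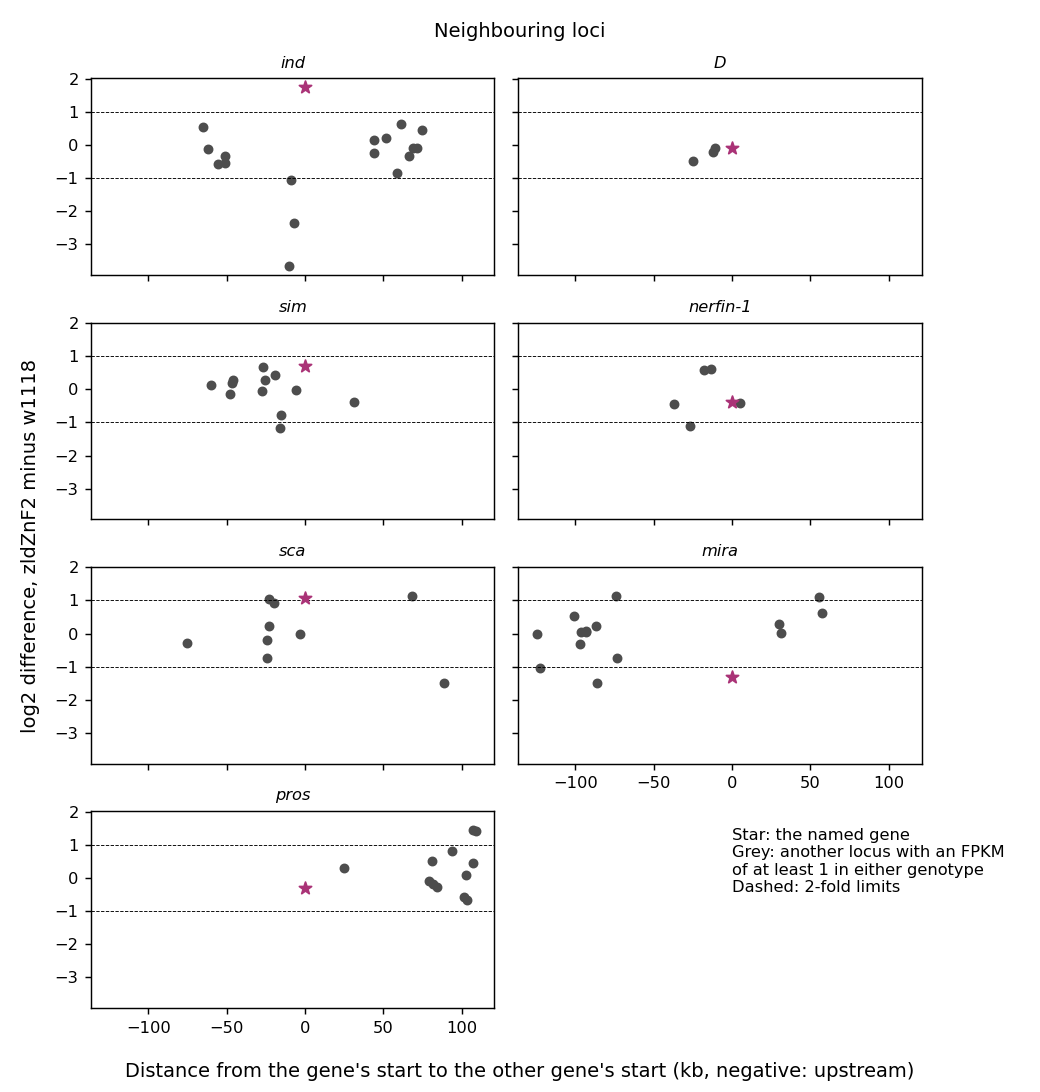
Log2 difference (y axis, *zldZnF2* minus *w1118*) of each locus reaching 1 FPKM around 7 of the genes, against the distance between gene starts (x axis, kb, negative upstream). Stars mark the named gene and dashed lines mark 2-fold. *ind* lies above every locus around it. Only *CG4433* lies below *mira* in its panel, which holds loci on both sides of 0.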

How the data were processed

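Messenger RNA of 6 stage 5 embryo samples, grouped by genotype as labelled, was measured by sequencing with the TruSeq RNA kit. According to the methods, the authors mapped 100 bp single-end reads to dm6 with RNA-STAR, assembled transcripts with Cufflinks and compared genotypes with Cuffdiff. The file that the authors deposited holds, for each locus, 1 FPKM per genotype over its 3 samples. Counting and normalization options are not given in the sources used here. The deposited fold changes, test statistics, p-values and q-values are the authors' own comparison and were not used.

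All 2716 loci of chromosomes X, 4 and Y are listed at 0 in both genotypes and were left out. On the other 4 arms, 6265 of 13880 loci reached 1 FPKM in either genotype. Differences were taken on log2(FPKM + 1) with a limit of 2-fold, and the calculation was tested on simulated data. Depth is unknown, and an FPKM of 0 may be a failed estimate. The 10 genes and the lists were chosen with earlier results of these data known. Named were all 10 genes and listed or neighbouring genes past 2-fold. Genes within 2-fold were singled out after their values were seen. Positions come from Ensembl release 115 (dm6). Sequences were not analysed here. Alternatives were other pseudocounts, FPKM minimums and fold limits, centring on the median, and single-gene loci. Python 3.11.15, NumPy 2.4.6, pandas 2.3.3 and Matplotlib 3.10.9 were used.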

Additional observations from a re-analysis of the deposited data

How the results depend on the processing

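No paired analysis was possible because the values are 1 per genotype, and for the same reason no sample could be left out. With a pseudocount of 0.1 or 5 FPKM, centring, no FPKM minimum or one of 5, or single-gene loci, 3 genes stayed higher and 1 lower past 2-fold, of 10 counted without an FPKM minimum and 7 otherwise. Over all loci the shares under these settings ran from 2.33% to 14.6% higher and from 3.29% to 10.7% lower. With a fold limit of 3, 1 was higher (*ind*) and 0 were lower, against 1.6% and 2.54% of all loci. With a limit of 1.5, 3 were higher and 2 lower (*mira* and *esg*), against 21% and 17.9%. The log2 difference of *ind* was 1.06 with 5 FPKM added. The related genes higher past 2-fold numbered 5 with 5 FPKM added, against 9 as reported, where the share over all loci went from 9.82% to 2.33%. Among single lists, 5 FPKM added left 1 higher temporal identity gene of 2, 0 higher asymmetric division genes of 1, 0 higher glia markers of 2 and 2 lower muscle markers of 5. A minimum of 5 FPKM left 1 higher glia marker and 2 lower muscle markers, and single-gene loci 1 higher glia marker. With 0.1 FPKM added there were 2 higher neuroblast genes in place of 1, and 1 lower bHLH-PAS gene, 1 lower neuron marker and 1 higher muscle marker in place of 0.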
